A study of Rattus norvegicus with 8 samples.

Results

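On the arrays examined here, 6 mature microRNAs (miRNAs) were taken by name as the miR-29 family of the rat, among 758 miRNAs in all. They were the 3 guide arms rno-miR-29a-3p, rno-miR-29b-3p and rno-miR-29c-3p and the 3 opposite arms rno-miR-29a-5p, rno-miR-29b-5p and rno-miR-29c-5p, written below without the species prefix. Members were taken by name from the array annotation, without control spots. No cut-off on their values was used, but the family was chosen with earlier results of these data known. They were read by 16 of the 1806 probes. Of these members, only the 3 guide arms, with 6 probes, were detected well enough to be tested, and the 5p arms, with 10 probes, were not. Another opposite arm on the arrays, miR-29b-1-5p, was outside these names and is described at the end.

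A miRNA guides a silencing complex to messenger RNAs that pair with its seed, the short stretch near its 5′ end, and lowers the output of those messages. The miR-29 guide arms are known for sites in the messages of fibrillar and basement membrane collagens, elastin and fibrillins, and transforming growth factor beta is known to lower their level in fibroblasts. In the synovium, the lining tissue of the joint, fibroblasts make the collagen-rich matrix that thickens after joint injury.

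The guide arms are shown first because their shared seed is what makes them a family. Sequences came from RefSeq (assembly GRCr8), in which 6 of the 6 members were found. They run 5′ to 3′, and capitals mark the seed, bases 2 to 8.
miR-29a-3p: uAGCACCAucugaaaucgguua
miR-29b-3p: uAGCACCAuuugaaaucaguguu
miR-29c-3p: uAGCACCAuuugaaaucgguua
This seed occurred in 3 of the 693 mature miRNA names of the RefSeq table, which were these 3. Counted from 1 at the 5′ end, miR-29c-3p differed from miR-29a-3p at 1 position, C10U (the base of miR-29a-3p first). miR-29b-3p differed from miR-29c-3p at 3 positions, A18G, G21U and U22A (the base of miR-29b-3p first), and was 1 base longer. Array probes have therefore to tell apart guide arms that differ by 1 to 4 bases, and signal from a near-identical member cannot be told apart from a probe's own target with these data.

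The opposite arms share no seed with the guide arms, and they are shown because each reports on 1 gene.
miR-29a-5p: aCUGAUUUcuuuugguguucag
miR-29b-5p: cUGGUUUCacaugguggcuuag
miR-29c-5p: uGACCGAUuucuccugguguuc
No seed was common to any of them. The family is transcribed from a gene pair on chromosome 13 and another on chromosome 4 (GRCr8). Mir29b2 (chr13:109098831-109098911, plus strand) and Mir29c (chr13:109099359-109099446, plus strand) were separated by 447 bases. Mir29a (chr4:60617955-60618042, minus strand) and Mir29b1 (chr4:60618334-60618414, minus strand) were separated by 291 bases. The Mir29b1 and Mir29b2 hairpins are printed with the mature 3p arm in capitals, because they give the same miR-29b-3p from different chromosomes.
Mir29b1: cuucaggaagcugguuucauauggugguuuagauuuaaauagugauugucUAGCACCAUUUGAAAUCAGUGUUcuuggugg
Mir29b2: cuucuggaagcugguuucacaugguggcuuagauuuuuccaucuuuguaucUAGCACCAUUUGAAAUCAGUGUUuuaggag
The miR-29b-3p probes thus read the output of both genes together. In RefSeq, the member miR-29b-5p is the arm of Mir29b2.

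The tissue was synovium of the left knee of Sprague-Dawley rats, taken from the side of the joint away from the surgical incision. In the 4 samples of the ACLT group the anterior cruciate ligament had been transected, a surgical model of joint instability. In the 4 sham samples the knee had been opened and the ligament left uncut. The series title gives the time after surgery as 14 days and the sampling protocol as 2 weeks, while the design text gives 7 days, so the time is uncertain. The labels do not say that the samples of a group came from separate animals, so the p-values measure the spread between these samples only.

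The arrays differed in brightness within groups. The signal at the 75th percentile of the 136 probes detected on all arrays was 797, 1097, 353 and 305 on ACLT arrays 1 to 4, and 289, 317, 353 and 1185 on sham arrays 1 to 4. Between 111 and 184 miRNAs were detected per array, and no spot was saturated. With 4 arrays a group, precision is limited by their number. Levels below are log2 of the signal over this percentile of the same array. The 3 mesenchymal miRNAs chosen as markers of the stroma were all tested, with a summed scaled signal of 5.25 to 8.48 in ACLT and 4.61 to 7.20 in sham, while of the epithelial list 0 of 6 reached detection anywhere. Striated muscle miRNAs were present and uneven. Of 8 listed, 4 were tested (miR-1-3p, miR-206-3p, miR-133b-3p and miR-133a-5p), and miR-208a-3p and miR-208b-3p were detected on no array. The summed signal ran up to 16.0 in ACLT and from 1.43 to 6.14 in sham. On ACLT array 2, 3 of the 4 were at the detection floor, so its sum of 0.181 is an upper limit.

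The guide arms were clearly measured in every sample, and the 3 opposite arms taken as members were measured in none. Each probe of miR-29a-3p, miR-29b-3p and miR-29c-3p was well above background on all 8 arrays. The brighter miR-29a-3p probe lay between 17.2 and 97.2 times the lowest well-above-background signal of its array, and that of miR-29b-3p between 4.22 and 32.8 times. For miR-29c-3p this margin ran from 1.65 on sham array 1 to 12.2 on sham array 4, the thinnest margin of the 3 guide arms. Of the 8 spots of a guide probe, 5 to 8 were kept on an array. Over both probes and all arrays, the coefficient of variation between kept spots had a median of 4.25% and a maximum of 10.6% for miR-29a-3p, 7.10% and 15.9% for miR-29b-3p, and 6.36% and 13% for miR-29c-3p.

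None of the 10 probes of the 5p arms was well above background on any array, in ACLT or in sham. Their brightest probe reached at most 0.719 times the array's lowest well-above-background signal for miR-29a-5p, 0.369 times for miR-29b-5p and 0.523 times for miR-29c-5p. Both groups lay below the lowest well-above-background signal, so no fold change is given for these arms. Their levels were not detectable on these arrays, which does not show that the arms are absent.

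**Figure D1:**
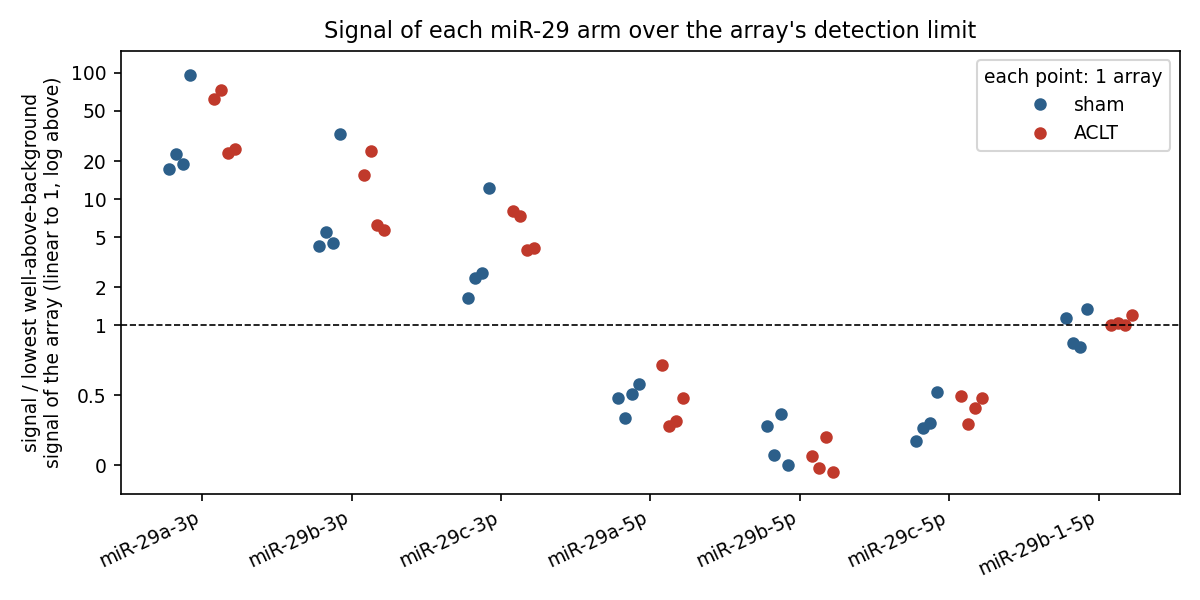
Signal of the brightest probe of each miR-29 arm on each of the 8 arrays, divided by the lowest well-above-background signal of that array (vertical axis, linear up to 1 and logarithmic above); the dashed line is that limit and each point is 1 array. All points of the 3 guide arms lie above the line, from 1.65 upward, and all points of the 3 member 5p arms lie below it, at 0.719 or less; miR-29b-1-5p, which is no member, lies about the line at 0.843 to 1.34.

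miR-29a-3p, the guide arm of the chromosome 4 gene Mir29a, was nearly level across the samples. Its log2 levels were 0.14, 0.21, 0.12 and 0.088 on ACLT arrays 1 to 4 and -0.022, 0.26, -0.13 and 0.28 on sham arrays 1 to 4. All 4 ACLT values lay inside the sham range, which sham arrays 3 and 4 bounded. Before scaling the same probe read 880, 1272, 385 and 325 in ACLT and 285, 379, 324 and 1442 in sham. Its spread over the 8 arrays thus fell from 5.06-fold in raw signal to 1.33-fold after scaling. Its own signal lay close to the percentile used for scaling on every array, as its levels near 0 show. Of the 78 tested miRNAs above the detection floor on all arrays, 4 had a smaller SD than its 0.139 log2 units, against a median SD of 0.291. This SD holds for this scaling, and the part of the closeness to the percentile in it was not tested. The ACLT mean was 0.14 ± 0.053 (SD, n = 4) and the sham mean 0.10 ± 0.20 (SD, n = 4).

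miR-29b-3p, made from both gene pairs, varied more. Its log2 levels were -1.87, -1.39, -1.77 and -2.03 on ACLT arrays 1 to 4 and -2.05, -1.81, -2.21 and -1.29 on sham arrays 1 to 4. Each group held 1 high array, ACLT 2 and sham 4, and the ACLT values again lay inside the sham range. These were also the brightest arrays of their groups, with raw signals of 418 and 486 where the other arrays read 69.9 to 218. The spread over the 8 arrays was 6.96-fold before scaling and 1.90-fold after it. The means were -1.77 ± 0.27 in ACLT and -1.84 ± 0.40 in sham (SD, n = 4 each).

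miR-29c-3p, the guide arm of the chromosome 13 gene Mir29c, had the widest gap between the groups of the 3. Its log2 levels were -2.81, -3.11, -2.42 and -2.50 on ACLT arrays 1 to 4 and -3.40, -3.01, -2.99 and -2.71 on sham arrays 1 to 4. ACLT arrays 3 and 4 were above every sham array, while ACLT array 2 was below all sham arrays but the first, so the groups overlapped. Raw signals were 114, 127, 65.7 and 54.1 in ACLT and 27.4, 39.5, 44.6 and 181 in sham. The spread over the 8 arrays was 6.62-fold before scaling and 1.97-fold after it. The ACLT mean was -2.71 ± 0.32 and the sham mean -3.03 ± 0.28 (SD, n = 4 each).

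**Figure D2:**
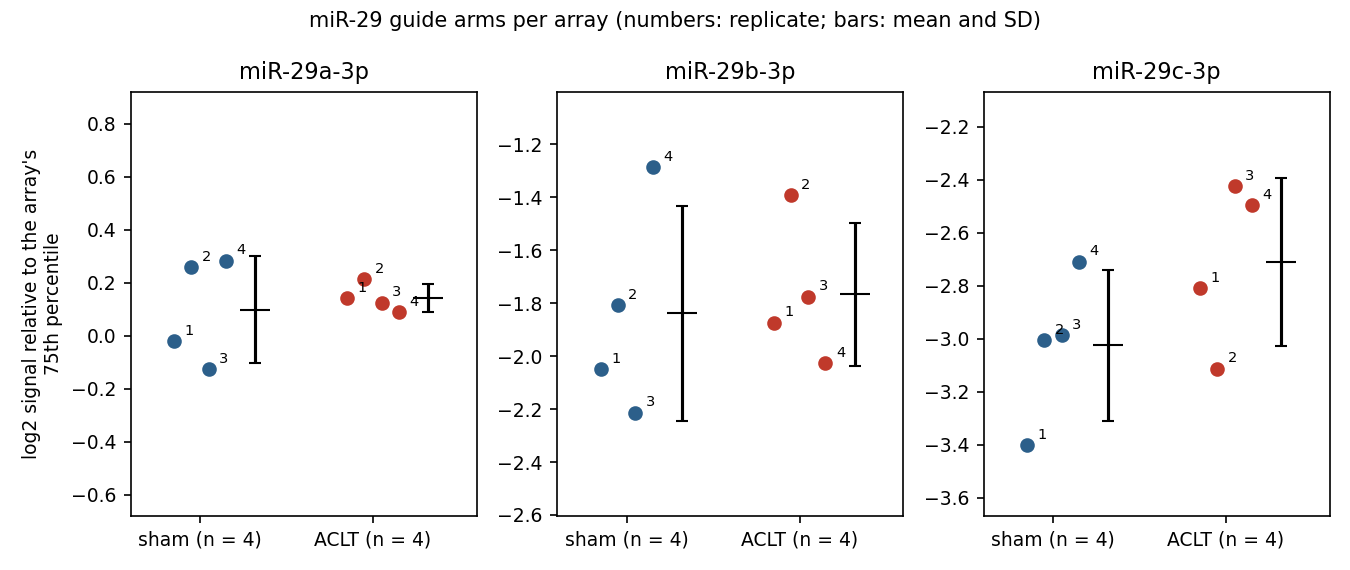
Levels of the 3 guide arms on each array, as log2 signal relative to the 75th percentile of the array (vertical axes of equal span, with different positions); points are arrays numbered by replicate, and bars give the mean and SD of 4 arrays. The groups overlap in all 3 panels, and for miR-29c-3p ACLT arrays 3 and 4, at -2.42 and -2.50, lie above every sham array.

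No guide arm differed between ACLT and sham beyond the spread of the samples. In limma fits over 113 tested miRNAs with Benjamini-Hochberg adjustment, miR-29a-3p was 0.044 log2 units higher in ACLT (SE 0.105, 95% interval -0.20 to 0.29, adjusted p = 0.955), a ratio of 1.03 with limits of 0.868 and 1.22. miR-29b-3p was 0.072 higher (SE 0.229, interval -0.47 to 0.61, limma adjusted p = 0.955), a ratio of 1.05 with limits of 0.723 and 1.53. miR-29c-3p was 0.31 higher (SE 0.201, interval -0.16 to 0.79, limma adjusted p = 0.792), a ratio of 1.24 with limits of 0.895 and 1.73. With this scaling, the intervals allow a rise of at most 1.22-fold for miR-29a-3p, 1.53-fold for miR-29b-3p and 1.73-fold for miR-29c-3p, and a fall to no less than 0.723 of sham for any of them. With hybridisation spike-ins the fitted differences alone, 0.84, 0.86 and 1.11 log2 units, lay above the upper limits of 0.29, 0.61 and 0.79. The probes of these spike-ins were identified by closeness to a metric in the file headers. Their largest log10 difference from it was 0.0353, against 0.00488 for the labelling spike-in probes and their metric, so this setting is less certain. On ACLT arrays, 3 of 4 values of miR-29a-3p, 2 of 4 of miR-29b-3p and 3 of 4 of miR-29c-3p lay above the sham mean.

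Among all 113 miRNAs, 0% passed an adjusted p of 0.05 in limma, so the 0 of 3 guide arms called is read against a background without calls. At an unadjusted p under 0.05, limma gave 8 miRNAs (7.08%), none of them higher in ACLT and none of them a guide arm. The fitted difference was above 0 for all 3 guide arms and for 33.6% of the tested miRNAs (differences within 1e-09 of 0 counted as 0), and 0% had groups that did not overlap. The median difference over all tested miRNAs was -0.073. Ordered from the highest difference, miR-29c-3p was at place 9, miR-29b-3p at 29 and miR-29a-3p at 32.

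**Figure D3:**
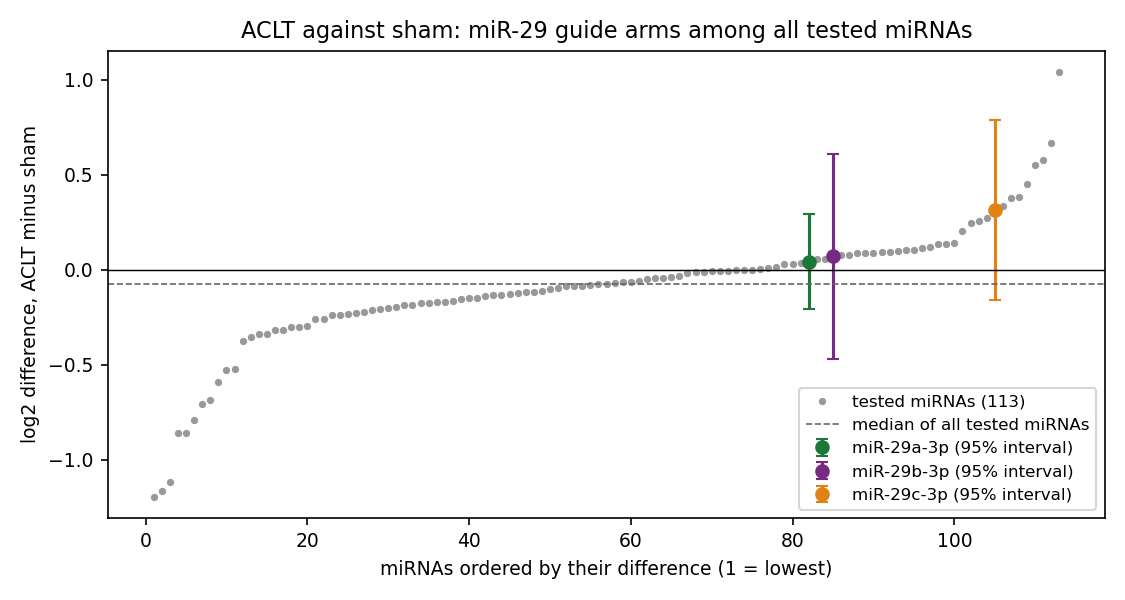
Difference between ACLT and sham in log2 units (vertical axis) for the 113 tested miRNAs, ordered from the lowest to the highest (horizontal axis); grey points are miRNAs, the dashed line is their median, and the coloured points with bars are the 3 guide arms with 95% intervals. The intervals of all 3 guide arms include 0, and their differences, 0.044, 0.072 and 0.31, lie above the median of -0.073.

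The probes of each guide arm gave like differences. They were 0.063 and 0.044 for miR-29a-3p, 0.047 and 0.072 for miR-29b-3p, and 0.31 from both miR-29c-3p probes. All arrays were on 1 slide, whose row 1 held replicates 1 and 2 of each group and whose row 2 held replicates 3 and 4. Within these rows the difference was 0.060 and 0.028 for miR-29a-3p, 0.24 and 0.39 for miR-29c-3p, and 0.30 and -0.15 for miR-29b-3p, whose direction turned. Leaving out sham array 3 turned miR-29a-3p to -0.031, and leaving out ACLT array 2 or sham array 3 turned miR-29b-3p to -0.053 in either case. For miR-29c-3p the difference was 0.45 without ACLT array 2 and 0.19 without sham array 1.

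The size of the differences depended on how the arrays were brought to a common scale. Over 10 ways of scaling and background correction, the difference ran from -0.14 to 0.84 for miR-29a-3p (above 0 in 9), from -0.12 to 0.86 for miR-29b-3p (above 0 in 8) and from 0.034 to 1.11 for miR-29c-3p (above 0 in 10). The median of all tested miRNAs moved with them, from -0.26 on the labelling spike-in probes to 0.62 on the hybridisation spike-in probes. Relative to that median, miR-29a-3p was 0.073 to 0.22 higher, miR-29b-3p 0.030 to 0.24 higher and miR-29c-3p 0.11 to 0.49 higher. Most of these settings multiply each array by 1 factor, which moves the guide arms and the median nearly alike, so staying above the median is no sign of stability. Within slide row 2, miR-29b-3p was at -0.15, below the median of 0.

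**Figure D4:**
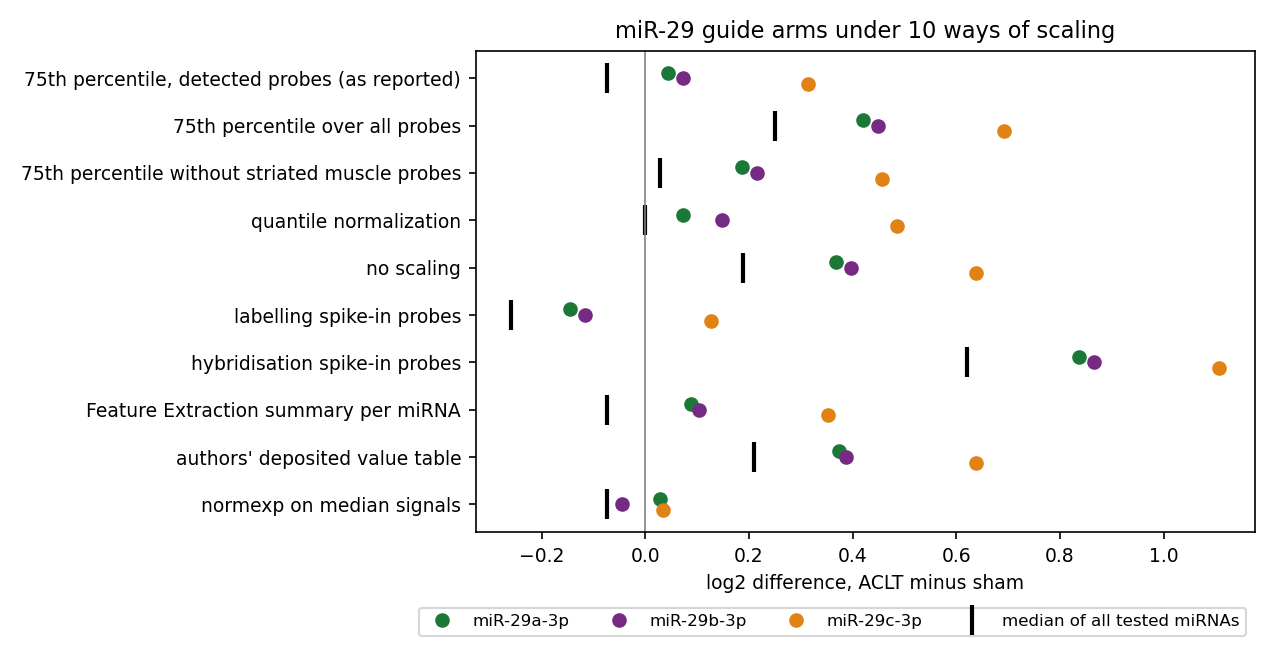
Difference between ACLT and sham in log2 units (horizontal axis) for the 3 guide arms (coloured points) and the median of all tested miRNAs (black bar) under each of 10 settings (vertical axis). Points and bar shift together from the labelling spike-ins, where the median is -0.26, to the hybridisation spike-ins, where it is 0.62, as most settings multiply each array by 1 factor.

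Whether the guide arms changed unequally was asked with ratios within each array, from which a single scaling factor per array drops out. A ratio of different probes has no meaning as a level, so only its differences between samples are read. The ratio of miR-29c-3p to miR-29a-3p deviated from its mean over 8 arrays by 0.036, -0.34, 0.44 and 0.40 log2 units on ACLT arrays 1 to 4 and by -0.39, -0.27, 0.13 and -0.0036 on sham arrays 1 to 4. ACLT arrays 3 and 4 were highest, and ACLT array 2 lay among the low sham arrays. The ratio was 0.27 higher in ACLT, with an interval of -0.465 to 0.83 from inverting the exact test (two-sided exact permutation p = 0.314, adjusted over 3 pairs 0.686). It was 0.0052 with normexp background correction, 0.41 with quantile normalization, 0.17 without ACLT array 3 and 0.43 without ACLT array 2. The normexp setting adds an offset of 50 to every signal, while the processed signal of the brighter miR-29c-3p probe was 27.4 to 181. The part of this offset in the normexp values was not tested. For miR-29c-3p to miR-29b-3p the difference was 0.24 (interval -0.945 to 0.95, exact permutation p = 0.457, adjusted 0.686). For miR-29b-3p to miR-29a-3p it was 0.028 (interval -0.545 to 0.48, exact permutation p = 0.83, adjusted 0.83). The smallest p these 70 arrangements allow is 0.0286, which becomes 0.0857 after adjustment if only 1 pair reaches it, so a single pair could not pass 0.05. No unequal change was detected with this design, and the intervals allow differences of close to 1 log2 unit for miR-29c-3p against miR-29b-3p.

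Across the 8 arrays the highest r between guide arms as scaled here was that of miR-29a-3p with miR-29b-3p, which passed the threshold by rank and not by Pearson's r after adjustment. The difference between the 3 correlations was not tested. The scaled levels of miR-29a-3p and miR-29b-3p had Pearson's r = 0.840 (exact permutation p = 0.0105, adjusted over 6 relations 0.0631) and Spearman's rho = 0.881 (exact permutation p = 0.00724, adjusted 0.0435), with r = 0.751 after leaving out the 2 arrays farthest from the median. For miR-29a-3p and miR-29c-3p, r was 0.253 (exact permutation p = 0.541, adjusted 0.649) and rho 0.0714 (exact permutation p = 0.882, adjusted 0.882), and r without 2 arrays was -0.624. For miR-29b-3p and miR-29c-3p, r was 0.119 (exact permutation p = 0.774, adjusted 0.774) and rho 0.238 (exact permutation p = 0.582, adjusted 0.699), and r without 2 arrays was 0.389. These levels share the array scale, and the order of the correlations turned with it. With the percentile taken without striated muscle probes, r was 0.778 for miR-29a-3p with miR-29c-3p and 0.740 for miR-29a-3p with miR-29b-3p. Without scaling, where brightness dominates, the 3 values of r were 0.995, 0.944 and 0.936. Each slide row held 4 arrays, too few for a correlation within it.

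The level of striated muscle miRNAs moved with miR-29c-3p relative to the other guide arms, a pattern examined only after the values had been seen. With quantile normalization it was weaker for the ratio to miR-29a-3p. Striated muscle miRNAs mark skeletal muscle fibres, in which the miR-29 family is also known to be made. Their mean log2 level was -0.22, -4.47, 1.17 and 1.5 on ACLT arrays 1 to 4 and -1.09, -1.92, 0.052 and -1.31 on sham arrays 1 to 4. ACLT array 2 was lowest and ACLT arrays 3 and 4 were highest. The value of ACLT array 2 is an upper limit, since 3 of its 4 miRNAs were set to the floor of -4.48, and each Pearson's r over all 8 arrays depends on where that floor is set. Spearman's rho uses only its rank, and r without 2 arrays leaves it out. For the level of miR-29c-3p itself, r with the muscle level was 0.644 (exact permutation p = 0.0804, adjusted over 6 relations 0.238) and rho 0.690 (exact permutation p = 0.0694, adjusted 0.192), with r = 0.583 without 2 arrays. For miR-29a-3p r was -0.431 (exact permutation p = 0.289, adjusted 0.434) and rho -0.643 (exact permutation p = 0.0962, adjusted 0.192), with r = -0.419 without 2 arrays. For miR-29b-3p r was -0.597 (exact permutation p = 0.119, adjusted 0.238) and rho -0.500 (exact permutation p = 0.216, adjusted 0.324), with r = -0.274 without 2 arrays. Under the labelling spike-ins r of miR-29c-3p turned to -0.16, and r of miR-29a-3p turned under other scalings, while that of miR-29b-3p was below 0 under all 8 alternatives.

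The relation of the within-array ratios to the muscle level was examined after these values had been seen. It was picked from the same data, and each ratio follows from the other 2, so its p-values only describe the pattern. A single factor per array drops out of these ratios, but other effects of brightness may not. For miR-29c-3p to miR-29b-3p, the lowest ratio of each group lay on its brightest array, ACLT array 2 (75th percentile signal 1097) and sham array 4 (1185). The part of brightness in these ratios was not tested. The ratio of miR-29c-3p to miR-29b-3p deviated from its mean by 0.13, -0.66, 0.42 and 0.60 on ACLT arrays 1 to 4 and by -0.29, -0.13, 0.29 and -0.36 on sham arrays 1 to 4, lowest on the array with the least muscle signal and highest on that with the most. Its r with the muscle level was 0.934 (exact permutation p = 0.000471, adjusted over 3 relations 0.00141) and rho 0.929 (exact permutation p = 0.00223, adjusted 0.00670), with r = 0.876 without ACLT arrays 2 and 4. For miR-29c-3p to miR-29a-3p r was 0.842 (exact permutation p = 0.00605, adjusted 0.00908) and rho 0.833 (exact permutation p = 0.0154, adjusted 0.0231), with r = 0.871 without 2 arrays. With quantile normalization this relation was weaker (r = 0.5, exact permutation, adjusted p = 0.209). For miR-29b-3p to miR-29a-3p r was -0.604 (exact permutation p = 0.12, adjusted 0.12) and rho -0.524 (exact permutation p = 0.197, adjusted 0.197), with r = -0.102 without 2 arrays. With the muscle level as a covariate, an alternative also added after seeing the values, the difference between ACLT and sham was 0.26 for miR-29c-3p (limma adjusted p = 0.687), 0.063 for miR-29a-3p and 0.13 for miR-29b-3p. Beyond this covariate, the part of muscle RNA in the miR-29c-3p values was not tested, and fewer muscle cells and less RNA per cell cannot be told apart in bulk tissue.

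**Figure D5:**
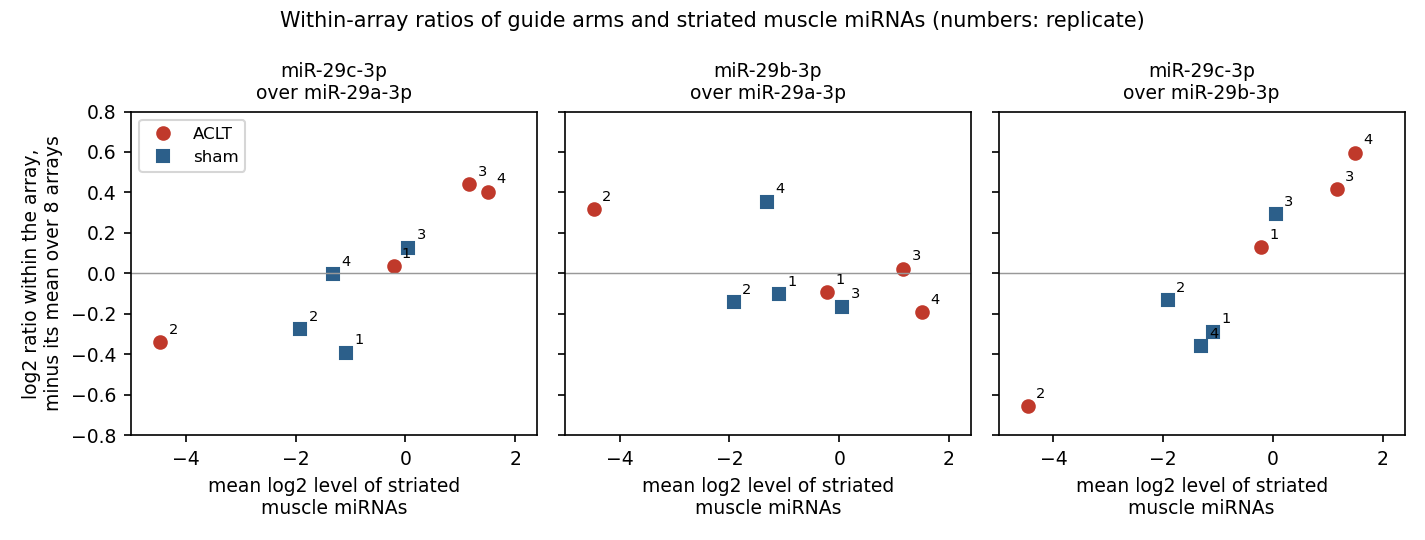
Within-array log2 ratio of each pair of guide arms, as the deviation from its mean over 8 arrays (vertical axis), against the mean log2 level of the 4 tested striated muscle miRNAs (horizontal axis); points are arrays numbered by replicate, and the muscle level of ACLT array 2 is an upper limit at the detection floor. The ratio of miR-29c-3p to miR-29b-3p goes from -0.66 on ACLT array 2, with a muscle level of -4.47, to 0.60 on ACLT array 4, with a muscle level of 1.5.

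As a description over the 77 miRNAs, guide arms included, that were above the floor on all arrays and not on the muscle list, with no test, the median r with the muscle level was -0.413 and 56 were negative. Ordered from the highest r, miR-29c-3p was at place 6, miR-29a-3p at 41 and miR-29b-3p at 55. The highest was miR-1b (r = 0.986), a miRNA of the muscle miR-1 family that is not on the list. The percentile used for scaling includes striated muscle probes, and its part in these values of r was not tested. With the percentile taken without those probes, r with the muscle level was 0.752 for miR-29c-3p, 0.287 for miR-29a-3p and -0.284 for miR-29b-3p. The miRNAs whose scaled levels were most like each guide arm over the 8 arrays were let-7g-5p (r = 0.912), miR-107-3p (0.909) and miR-29b-3p (0.840) for miR-29a-3p, among 77 others. For miR-29b-3p they were miR-101a-3p (0.853), miR-107-3p (0.846) and miR-29a-3p (0.840). For miR-29c-3p they were miR-22-3p (0.722), miR-1b (0.661) and miR-30e-5p (0.658). miR-29c-3p was at place 47 in the order for miR-29a-3p and at place 48 in that for miR-29b-3p. In the order for miR-29c-3p, miR-29a-3p was at place 13 and miR-29b-3p at place 17. The median r with the 77 others was 0.454 for miR-29a-3p, 0.322 for miR-29b-3p and -0.188 for miR-29c-3p.

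Among other miRNAs known from fibrosis, none passed the test either. Of 8 miRNAs listed as promoting fibrosis, 5 were tested, 4 were higher and 1 lower in ACLT in fitted difference, and none passed the test, with a median of 0.095. Of 12 listed as restraining fibrosis, 9 were tested, 4 were higher and 5 lower, and none passed, with a median of -0.012. Over all tested miRNAs the median was -0.073, 33.6% were higher and 0% passed. The 3 mesenchymal marker miRNAs are among the 5 tested that are listed as promoting fibrosis. miR-192-5p, miR-433-3p and miR-200b-3p of these lists were detected on no array. miR-21-5p, a miRNA known to promote fibroblast survival, had a level of 1.88 ± 0.46 in ACLT and 1.21 ± 0.51 in sham (SD, n = 4 each), a difference of 0.67 (SE 0.32, limma adjusted p = 0.645). miR-34a-5p, a target of the p53 pathway, had -1.07 ± 0.30 and -1.65 ± 0.49, a difference of 0.58 (SE 0.270, limma adjusted p = 0.645). miR-140-5p, abundant in cartilage, differed by 0.38 (SE 0.329, limma adjusted p = 0.840) and let-7d-5p by 0.14 (SE 0.124, limma adjusted p = 0.840). Without sham array 3 the difference was 0.38 for miR-34a-5p, 0.15 for miR-140-5p and 0.020 for let-7d-5p, and without ACLT array 2 it was 0.20 for miR-140-5p. These 4 were named after their values had been seen.

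Marker miRNAs of further cell types are given beside the guide arms, and their part in the values was not tested. Of all 113 tested miRNAs, 33.6% had a fitted difference above 0, and the median was -0.073. The 4 tested striated muscle miRNAs were all higher in fitted difference (median 0.47), with SEs of 0.765 to 1.63. Of the leukocyte list 4 of 6 were tested and all were lower (median -0.18), with a summed signal of 0.422 to 0.533 in ACLT and 0.457 to 0.568 in sham. Of the erythroid list 3 of 4 were tested (median -0.53), with summed signals of 0.521 to 0.969 in ACLT and 0.490 to 1.48 in sham. Of the cartilage list 3 of 4 were tested (median 0.25), with 0.407 to 0.734 in ACLT and 0.286 to 0.599 in sham. The endothelial list had 1 of 2 tested (-0.20), with 0.855 to 1.08 in ACLT and 0.896 to 1.39 in sham, and miR-126a-5p was detected on no array. The smooth muscle list had 1 of 2 tested (-0.30), with 0.969 to 1.11 in ACLT and 1.05 to 1.62 in sham. None of these markers passed the test, and neither did any other of the 113 tested miRNAs.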

How the data were processed

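Each of 8 rat synovium samples was hybridised to 1 single-colour miRNA array. Per the file headers, the arrays were extracted with Feature Extraction 10.7.3.1 under the protocol miRNA_107_Sep09, and the deposited values are spot intensity (processed signal) with flags for spots well above background. Per the labels' protocols, 50 ng of total RNA was labelled, with a kit the labels name for cRNA. The authors' value table was identical to the Feature Extraction summary per miRNA, with 0.1 where a miRNA was not detected.

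For the present analysis, control and outlier spots were left out, the spots of a probe were averaged, and log2 of the signal over the array's 75th percentile (136 probes detected on all arrays) was taken, with a floor at -4.48. The brightest probe stood for each miRNA. A miRNA was tested if detected on all 4 arrays of a group, which gave 113, fitted with limma 3.58.1 in R 4.3.3 (lmFit, eBayes) without covariates and adjusted by Benjamini-Hochberg. Ratios within arrays and correlations over arrays had exact permutation tests, two-sided. The fit was tested on simulated data. Alternatives covered scaling, background correction (normexp with an offset of 50), detection, probe choice, slide row and left-out arrays. The members and all lists were chosen with earlier results of these data known. The text names the 6 members, the 3 miRNAs most like each guide arm, marker lists by their counts, and 4 list miRNAs picked after their values were seen. Symbols follow the array annotation, and 103 of the 113 tested names matched RefSeq.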

Additional observations from a re-analysis of the deposited data

Results flagged for a closer look

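The log2 ratio of miR-29b-3p to miR-29a-3p was -1.57 on sham array 4 and between -2.09 and -2.03 on the other sham arrays. The gap to the nearest array was 0.883 of the whole range of the group. Sham array 4 was also the brightest sham array. Of 22 group values examined in this way, 1 stood apart, and chance flags about 1 in 20 groups, or 1.1 of 22.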

How the results depend on the processing

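Over 153 alternatives of the 3 guide-arm differences and the 3 ratios, 14 turned and 0 passed a threshold. In 45 of them the value could not move, since the choice leaves it the same, and the ratios could not pass within a slide row or under the replicate block. The smallest limma adjusted p of a guide arm was 0.423. Before adjustment, the limma p of miR-29c-3p, 0.161 as reported, fell under 0.05 in some alternatives and rose in others. It was 0.0425 with quantile normalization, 0.0488 with slide row as a block and 0.0498 without ACLT array 2. The same unadjusted limma p was 0.868 with normexp, 0.708 with labelling spike-ins, 0.362 without sham array 1 and 0.339 without ACLT array 3. The difference of miR-29a-3p turned with labelling spike-ins (-0.14), and miR-29b-3p with labelling spike-ins (-0.12), normexp (-0.044) and within slide row 2 (-0.15). Leaving out 1 array gave -0.031 to 0.11 for miR-29a-3p, -0.053 to 0.26 for miR-29b-3p and 0.19 to 0.45 for miR-29c-3p. The ratio of miR-29b-3p to miR-29a-3p turned with normexp (-0.073) and within slide row 2 (-0.18) and ran from -0.073 to 0.15 without 1 array. The ratio of miR-29c-3p to miR-29b-3p turned within slide row 1 (-0.053). let-7d-5p turned with quantile normalization (-0.025) and labelling spike-ins (-0.053). The cause was not tested.

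The correlation with the muscle level turned for miR-29c-3p with labelling spike-ins (r = -0.16), and for miR-29a-3p with hybridisation spike-ins (0.0051) and with the percentile taken without muscle probes (0.287). The count of relations past the threshold, 0 as reported by r, was 3 with the percentile over all probes, no scaling or hybridisation spike-ins, and 1 with quantile normalization, labelling spike-ins or the Feature Extraction summary. The ratio of miR-29c-3p to miR-29b-3p kept a positive r with the muscle level (0.780 to 0.952). That to miR-29a-3p was weaker with quantile normalization (r = 0.5, exact permutation, adjusted p = 0.209). Over all miRNAs, 8 were called by limma within slide row 1 and 0 under the other alternatives.

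Deviations of samples with the same replicate number had correlations of -0.19, 0.59, 0.80 and -0.41. The labels do not say whether the numbers pair the samples, and these values cannot settle it. With the replicate number as a block the differences stayed at 0.044, 0.072 and 0.31 with 0 calls, and the exact permutation p of the ratios was 0.25, 0.875 and 0.5, where the smallest p of 4 pairs is 0.125. The guide arm nearest to background was miR-29c-3p on sham array 1, at 1.65 times the lowest well-above-background signal. For the 5p arms, only the detection rule by spots gave a value, again 0 arrays.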

Other observations

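miR-29b-1-5p, the opposite arm of Mir29b1, is not a member by name and was looked at after its values had been seen. In RefSeq it reads, with the seed in capitals, as follows.
miR-29b-1-5p: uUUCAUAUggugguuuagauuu
The Feature Extraction summary detected it on all 8 arrays, but only 3 of 16 probe values in ACLT and 4 of 16 in sham were well above background. Its brightest probe read 14.1, 17.9, 16.6 and 15.9 on ACLT arrays 1 to 4 and 19.1, 14.4, 14.4 and 19.8 on sham arrays 1 to 4, or 0.843 to 1.34 times the lowest well-above-background signal of the array. By that summary it was among the 113 tested miRNAs, with a difference of -0.073 (SE 0.141, limma adjusted p = 0.909). It was at the floor on 4 arrays, so a difference between the groups could not be read at this signal.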
